A study of Mus musculus with 6 samples.

Results

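The SLC25 genes encode the mitochondrial carriers, the proteins that move metabolites across the inner membrane of mitochondria. Members were the genes of the array whose symbol is Slc25a followed by a number, each read from its brightest probe set, by the mean of all arrays. They numbered 44 of 18193 genes with a probe set, through 93 probe sets that name exactly 1 gene. Their signal was compared between mouse neural stem cells that were positive for Spot14 GFP and cells that were negative for it, with 3 arrays of total RNA per group, which the series design calls biological replicates. Spot14, encoded by Thrsp, is known from tissues that make fat, and GFP reports it here. Both groups carry the same label for cell type, and the strain, age and sex of the animals, the reporter's construction, the culture and the way the cells were separated are not stated in the labels. The series title speaks of adult neural stem cells and of lipogenesis. As nothing more is said of how replicates were obtained, p-values measure the spread between these arrays.

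Most of these carriers exchange one compound of the mitochondrial matrix for another of the cytosol, and each accepts a narrow set of substrates. Some serve energy supply, as the ADP/ATP and phosphate carriers do, and others feed synthesis outside mitochondria, as the citrate carrier does when it exports the carbon used for fatty acids and sterols. Carriers of coenzyme A, acylcarnitine, amino acids, folate, nucleotides and iron supply pathways within the matrix. Neural stem cells are known to depend on both the making and the burning of fatty acids.

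Of the 44 members, 36 were tested, those with log2 4 or more on at least 3 of the 6 arrays. A level on this array is a log2 signal after GCRMA, so 1 unit is a 2-fold difference, and levels of different probe sets are not set against each other. The other 8 members lay near background and were not tested. They were the ADP/ATP carrier of testis Slc25a31, the ornithine carrier Slc25a2, Slc25a41, Slc25a35, Slc25a45, Slc25a47, Slc25a48 and Slc25a54. Group means of these 8 were between 2.11 and 4.04.

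Array properties bear on every value below. GFP negative replicate 3 stood apart: among the 36 tested members it was the array farthest from its own group's mean for 17, and among all tested genes for 49.2%. GFP negative replicate 2 showed 2.49 log2 units more 3′ than 5′ signal for control transcripts, against 1.51 to 1.82 on the other arrays. Mitosis genes were lower in GFP positive cells. Of that list 16 of 17 tested members fell, with a median of −1.76, where 2.11% of all tested genes were lower. Plk1, 1 of the 16, was under log2 4 on every GFP positive array (3.11, 3.48 and 2.74). It met the filter through the GFP negative arrays alone, so its call depends on the filter. Averaged over the 17 mitosis genes on the array, the level per gene ranged from 5.97 to 6.78 over the GFP positive arrays and from 7.93 to 8.60 over the others. The median stayed between −1.92 and −1.62 with any 1 array left out, while the number past the threshold was 0 without GFP positive replicate 1 or 3, 7 without GFP positive replicate 2, and 11, 2 and 17 without GFP negative replicate 1, 2 or 3. What share these properties have in the differences between carriers was not tested. Neural stem cell markers were present, with 9 of 10 tested. Higher in GFP positive cells were 2 of them, Gfap and Nr2e1, against 2.35% of all tested genes. Of the 9, 7 were positive and 2 negative, the latter Nes (−0.49, limma adjusted p = 0.364) and Fabp7 (−0.01), and Prom1, near background and not tested, read lower on every GFP positive array. Gfap passed in the fits without GFP negative replicate 1, 2 or 3, and Nr2e1 in that without GFP negative replicate 3, of the 6 fits that left out 1 array, with differences of 1.27 to 1.67 and 0.83 to 0.89 over those fits. Of markers of other cells, 0 of 4 for oligodendrocytes, 0 of 5 endothelial, 1 of 5 microglial (Csf1r), 1 of 6 neuronal (Map2) and 3 of 4 ependymal (Ccdc153, Foxj1 and Rsph1) were above the filter. Map2 differed by −0.34 (limma adjusted p = 0.473). Snap25, near background and not tested, read lower on every GFP positive array, while the groups overlapped for Dcx, Rbfox3, Syt1 and Tubb3. The ependymal list's mean level per gene ranged from 4.42 to 4.82 over the GFP positive arrays and from 3.95 to 5.05 over the others, and none of these markers passed the test. The median difference of the 3 tested ependymal markers was 0.27, and ranged from 0.11 with GFP negative replicate 2 left out to 0.86 with replicate 3 of that group left out. In bulk RNA, fewer cells of a type and less RNA per cell cannot be told apart.

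The coenzyme A carrier Slc25a42 and the carrier of unsettled substrate Slc25a34 were higher in GFP positive cells, and no tested carrier was lower. These 2 of 36 members (5.56%) passed at a limma adjusted p under 0.05, where 2.35% of all tested genes were higher. None of the members and 2.11% of all tested genes were lower, and 4.46% of all tested genes passed in either direction. At an unadjusted p under 0.05 limma counted 5 members higher and 1 lower (13.9% and 2.78%), against 9.92% and 8.28% of all tested genes. Slc25a42 was at or above the filter of log2 4 on all 6 arrays. Slc25a34 met it on 4 arrays, the 3 of the group where it was high and GFP negative replicate 3, so its call depends on the filter, and with no filter neither passed (limma adjusted p = 0.154 for Slc25a34 and 0.0618 for Slc25a42). With so few members these shares are a description and set the family apart in neither direction. The median difference of the members, taken as GFP positive minus GFP negative throughout, was 0.04 on the log2 scale, against 0.005 over all tested genes, and 21 of the 36 (58.3%) were positive, where 50.5% of all tested genes were. Arrays of the groups did not overlap for 9 members, 8 with GFP positive above and 1 with it below, or 22.2% and 2.78% against 13.8% and 11.5% of all tested genes. In both directions that is 25.0% of the members and 25.3% of all tested genes.

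**Figure D1:**
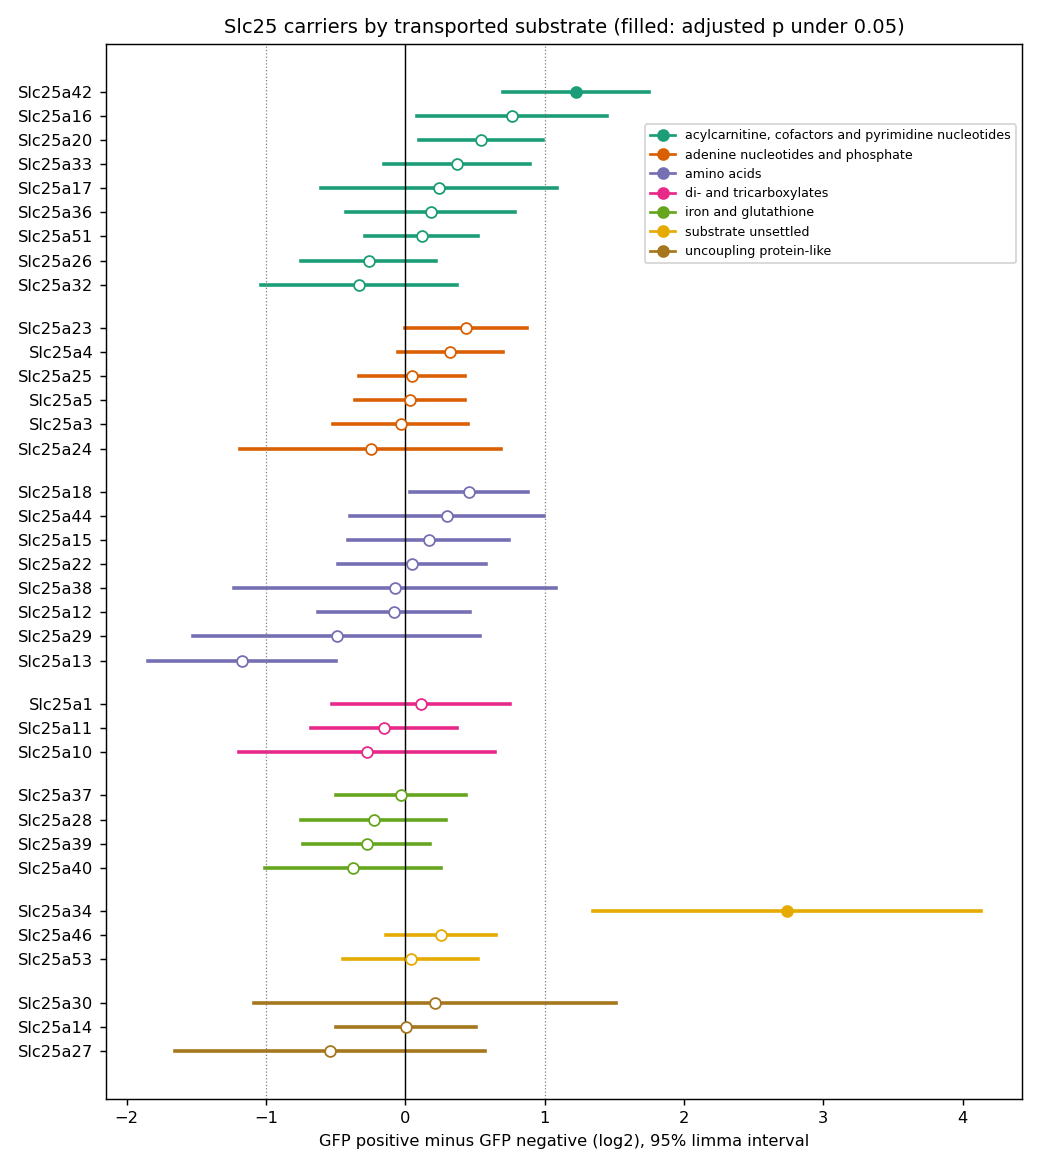
Differences of the 36 tested carriers on the log2 scale (x axis, positive where GFP positive cells were higher), grouped by transported substrate, with 95% limma intervals. Filled circles mark Slc25a42 (1.23) and Slc25a34 (2.74), the members with an adjusted p under 0.05, and dotted lines mark a 2-fold difference either way.

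The precision for carriers was about that for all genes. The 95% limma interval lay within 2-fold either way for 23 of the 36 members (63.9%), and for 62.7% of all tested genes. The median standard error of a member's difference was 0.23 on the log2 scale.

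Promoters are given for the 2 carriers that rose and for the aspartate/glutamate carrier Slc25a13, the nearest member outside the threshold and of opposite sign. Which start site the cells used was not measured. The promoters are RefSeq sequences of mouse assembly GRCm38.p6, from 250 bases before to 50 after the annotated start, on the minus strand in all 3 cases. Slc25a42 is at chr8:70212232-70212531, Slc25a34 at chr4:141623785-141624084 and Slc25a13 at chr6:6217124-6217423. Capitals mark CCAAT, the core of the NF-Y box, and GGGCGG, the GC box, on either strand.
Slc25a42: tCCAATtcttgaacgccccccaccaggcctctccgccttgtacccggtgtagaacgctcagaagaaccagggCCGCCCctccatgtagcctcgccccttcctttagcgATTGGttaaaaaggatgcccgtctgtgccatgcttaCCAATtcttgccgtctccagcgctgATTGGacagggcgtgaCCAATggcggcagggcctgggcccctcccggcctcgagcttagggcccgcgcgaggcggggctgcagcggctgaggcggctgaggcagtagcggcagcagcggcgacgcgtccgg
Slc25a34: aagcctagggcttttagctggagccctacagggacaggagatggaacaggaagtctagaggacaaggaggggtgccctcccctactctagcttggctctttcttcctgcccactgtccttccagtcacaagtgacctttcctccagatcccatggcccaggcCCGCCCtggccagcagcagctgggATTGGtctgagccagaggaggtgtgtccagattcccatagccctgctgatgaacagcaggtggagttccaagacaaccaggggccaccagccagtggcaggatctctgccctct
Slc25a13: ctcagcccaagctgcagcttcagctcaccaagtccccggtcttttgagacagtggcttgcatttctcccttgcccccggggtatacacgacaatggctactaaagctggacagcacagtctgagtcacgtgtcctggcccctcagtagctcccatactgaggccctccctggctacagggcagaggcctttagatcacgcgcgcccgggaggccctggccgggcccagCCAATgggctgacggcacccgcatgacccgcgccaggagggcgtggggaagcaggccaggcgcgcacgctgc

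The Slc25a42 promoter held 5 matches to CCAAT and 1 to GGGCGG, that of Slc25a34 held 1 of each, and that of Slc25a13 held 1 CCAAT and no GGGCGG. Of the 44 members, 34 had an entry in the table, with 43 promoters in all. GGGCGG was in 86.0% of these 43 and in 35.7% of all 32851 promoters, CCAAT in 48.8% and 37.4%, and the E-box CACGTG, which overlaps neither, in 18.6% and 7.15%. The E-box was in the Slc25a13 promoter and in neither of the others. A match is a description of letters, and nothing about factor binding was measured.

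Coenzyme A is the carrier of acyl groups in fatty acid oxidation and the citrate cycle, and Slc25a42 imports it into the matrix in exchange for adenine nucleotides. Slc25a42 read 6.50, 6.29 and 6.30 in GFP positive cells and 4.72, 5.34 and 5.35 in GFP negative cells. The groups did not overlap, and the 3 GFP positive values were close together. Their means of 6.36 ± 0.12 and 5.14 ± 0.36 (SD, n = 3 each) differed by 1.23 (SE 0.22), or 2.34-fold, with a 95% interval of 1.63-fold to 3.36-fold (limma adjusted p = 0.0306). Among fits that left out 1 array, Slc25a42 passed when GFP negative replicate 1 (1.02, limma adjusted p = 0.0464) or replicate 3 of that group (1.33, 0.0172) was absent, and not in the other 4, where the adjusted p was 0.0730 to 0.132. Slc25a42 did not pass with the 3′ to 5′ signal as a covariate (1.40, limma adjusted p = 0.0845) or with trend and robust settings (1.23, 0.0617). The other probe set of Slc25a42 lay near background in both groups.

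Slc25a16, which has also been linked to mitochondrial coenzyme A, was measured by a single probe set at 8.01, 8.40 and 8.77 in GFP positive cells and 7.96, 7.80 and 7.14 in GFP negative cells. The groups did not overlap, though the lowest GFP positive value, 8.01, was close to the highest GFP negative value, 7.96. The difference of 0.76 (SE 0.29, 1.70-fold) did not pass (limma adjusted p = 0.218).

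Slc25a34 has no settled substrate, and it read 6.53, 6.41 and 5.24 in GFP positive cells and 2.57, 2.77 and 4.64 in GFP negative cells. GFP negative replicates 1 and 2 were at background, while replicate 3 of that group approached GFP positive replicate 3. Their means of 6.06 ± 0.71 and 3.33 ± 1.14 (SD, n = 3 each) differed by 2.74 (SE 0.59), or 6.67-fold (limma adjusted p = 0.0493). Because the GFP negative mean is under log2 4, this fold rests on the background correction. With values under log2 4 set to 4, a fit chosen after seeing the data, the log2 difference was 1.85 and passed (limma adjusted p = 0.0396). Without GFP negative replicate 3 the difference was 3.40 (limma adjusted p = 0.00724). In that fit both remaining GFP negative values, 2.57 and 2.77, were under log2 4, so this call depends on the filter. Without any 1 of the other arrays Slc25a34 did not pass (2.36 to 3.15, limma adjusted p from 0.0948 to 0.188). With the 3′ to 5′ covariate it was 2.62 (limma adjusted p = 0.215).

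**Figure D2:**
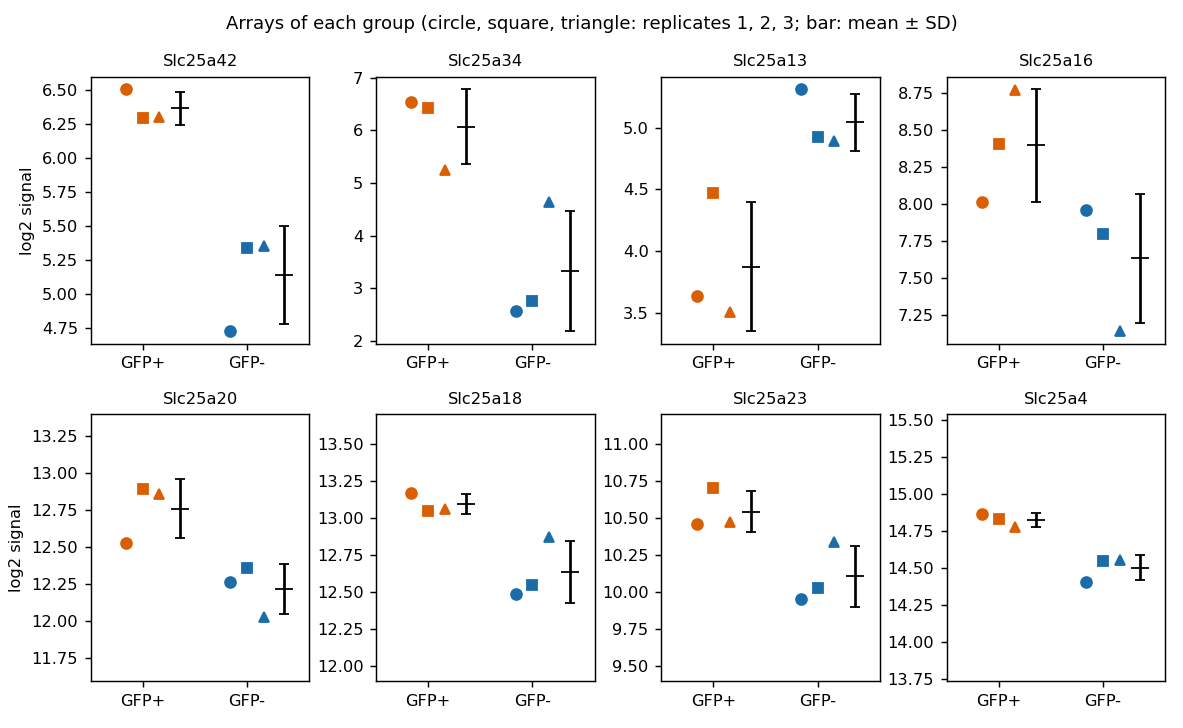
Log2 signal (y axis, with its own range in each panel) of 8 carriers on the 3 GFP positive and 3 GFP negative arrays; symbols give the replicate and bars the mean ± SD of each group (n = 3). The 8 are among the 9 tested members whose groups do not overlap, so no panel shows overlap. Those 9 are 25.0% of the tested members, against 25.3% of all tested genes. GFP positive arrays are above in 7 panels and below for Slc25a13. Slc25a42 and Slc25a34 are the ones that passed the test.

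Among carriers of acylcarnitine, cofactors and pyrimidine nucleotides, 1 of 9 tested members rose (Slc25a42), none fell, and 7 were positive, with a median of 0.24 and a range of −0.33 to 1.23. Of all tested genes 2.35% were higher, 2.11% lower and 50.5% positive, to be set beside each substrate class here and below. With 3 to 9 tested members per class, these counts are a description only. Slc25a20 brings acylcarnitines into the matrix for beta-oxidation and returns carnitine. Its levels were 12.53, 12.89 and 12.86 in GFP positive and 12.26, 12.35 and 12.03 in GFP negative arrays. The groups did not overlap, yet the difference of 0.54 (SE 0.19, 1.46-fold) did not pass (limma adjusted p = 0.183), and another probe set of Slc25a20 above the filter differed by 0.09. Slc25a33, a carrier of pyrimidine nucleotides, read 8.56, 8.50 and 8.52 against 7.98, 7.90 and 8.59, so that only GFP negative replicate 3 reached the GFP positive values. Its difference was 0.37 (limma adjusted p = 0.461), and 0.59 without that array (limma adjusted p = 0.0443). The related Slc25a36 differed by 0.18 (limma adjusted p = 0.791). The folate and FAD carrier Slc25a32 read 6.89, 7.07 and 6.54 in GFP positive and 6.77, 7.78 and 6.94 in GFP negative arrays, with a difference of −0.33 (SE 0.30, limma adjusted p = 0.646). Slc25a51, the NAD carrier, the peroxisomal Slc25a17 and the S-adenosylmethionine carrier Slc25a26 differed by 0.12, 0.24 and −0.26, with adjusted p of at least 0.593 by limma.

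Carriers of di- and tricarboxylates did not pass, with 3 tested, 1 positive and a median of −0.15. Slc25a1 exports citrate, from which cytosolic acetyl-CoA for lipogenesis is made. It read 7.20, 7.60 and 7.46 in GFP positive cells and 6.77, 7.41 and 7.73 in GFP negative cells, with overlapping groups. The difference was 0.11 (SE 0.27), and its 95% limma interval ran from 0.70-fold to 1.68-fold (limma adjusted p = 0.886). Slc25a10, the dicarboxylate carrier, read 6.60, 6.10 and 6.04 against 5.69, 6.62 and 7.26, with a difference of −0.27 (SE 0.39). The oxoglutarate/malate carrier Slc25a11, a part of the malate-aspartate shuttle, read 7.60, 8.35 and 7.95 against 8.20, 8.01 and 8.15, with a difference of −0.15 (SE 0.22). For both the spread within a group exceeded the difference between groups.

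Amino acid carriers were tested for 8 of 9 members; none passed, 4 were positive and 4 negative, and the median was −0.01. Slc25a13, or citrin, exports aspartate in exchange for glutamate and is the other mitochondrial step of the malate-aspartate shuttle. Slc25a13 read 3.64, 4.47 and 3.50 in GFP positive cells and 5.31, 4.93 and 4.89 in GFP negative cells. Every GFP positive array was the lower, and 2 of the former were under log2 4. Their means of 3.87 ± 0.52 and 5.05 ± 0.23 (SD, n = 3 each) gave a difference of −1.17 (SE 0.29), which did not pass (limma adjusted p = 0.0713). Over the fits with 1 array left out it was −1.47 to −0.99, with a limma adjusted p from 0.0522 to 0.266. Its paralog Slc25a12, or aralar, read 9.56, 9.47 and 9.23 against 9.13, 9.50 and 9.87, a difference of −0.08 (SE 0.23, limma adjusted p = 0.910).

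Slc25a18 and Slc25a22 both carry glutamate into mitochondria, and Slc25a18 is known from astrocytes. Slc25a18 read 13.17, 13.05 and 13.06 in GFP positive cells and 12.48, 12.55 and 12.87 in GFP negative cells. The groups did not overlap, and GFP negative replicate 3 lay nearest to the GFP positive values. The difference was 0.46 (SE 0.18, 1.37-fold, limma adjusted p = 0.234), and 0.58 without GFP negative replicate 3, where it passed (limma adjusted p = 0.0492). Slc25a22 read 6.05, 5.72 and 5.75 against 5.40, 5.98 and 6.00, a difference of 0.05 (SE 0.23). Of the remaining amino acid carriers, Slc25a44 (branched-chain amino acids) and Slc25a15 (ornithine) differed by 0.30 and 0.17. Slc25a38, which supplies glycine for haem synthesis, and the basic amino acid carrier Slc25a29 differed by −0.07 and −0.49. For both, GFP negative replicate 3 was the highest array, at 6.65 and 7.26. Other probe sets of Slc25a29 above the filter differed by −0.87 to 0.05. Among them 1 read 5.80, 5.32 and 4.72 in GFP positive and 5.89, 6.19 and 6.38 in GFP negative arrays. It separated the groups without passing when every probe set was tested (−0.87, limma adjusted p = 0.213).

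Carriers of adenine nucleotides and phosphate did not pass, with 6 of 8 members tested, 4 positive and a median of 0.04. Slc25a4, the ADP/ATP carrier best known from heart and muscle, read 14.87, 14.83 and 14.78 in GFP positive and 14.40, 14.55 and 14.55 in GFP negative arrays. The groups did not overlap, and the difference was 0.32 (SE 0.16, 1.25-fold, limma adjusted p = 0.353). Slc25a5, the ADP/ATP carrier known from dividing cells, read 14.50, 14.41 and 14.27 against 14.43, 14.24 and 14.42, a difference of 0.03 (SE 0.17). Its 95% limma interval ran from 0.78-fold to 1.34-fold. Slc25a3, the carrier of the phosphate used in ATP synthesis, read 12.88, 12.87 and 12.87 against 12.69, 12.75 and 13.28, a difference of −0.03 (SE 0.21). GFP negative replicate 3 was again the outlying array for Slc25a3, and without it the difference was 0.15 (limma adjusted p = 0.512). Slc25a23, a calcium-regulated carrier of ATP-Mg and phosphate, read 10.46, 10.70 and 10.47 against 9.95, 10.03 and 10.34, without overlap, a difference of 0.44 (SE 0.19, limma adjusted p = 0.276). Its relatives Slc25a24 and Slc25a25 differed by −0.25 and 0.05.

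All 4 carriers of iron and glutathione were tested, and all were negative, with a median of −0.25 and no member past the threshold. With 4 members this is a description, where 50.5% of all tested genes were positive. Slc25a37 (−0.03) turned positive with a common median (0.04), with the 3′ to 5′ covariate (0.10), without GFP positive replicate 2 (0.04) and without GFP negative replicate 2 (0.11). Slc25a40, a glutathione carrier, read 9.19, 8.82 and 8.74 in GFP positive and 9.37, 9.70 and 8.79 in GFP negative arrays, a difference of −0.37 (SE 0.27, limma adjusted p = 0.550). The related Slc25a39 differed by −0.28 (limma adjusted p = 0.538) and the iron carrier mitoferrin 2, Slc25a28, by −0.23 (0.673). Uncoupling protein-like carriers did not pass either, with 3 tested, 2 positive and a median of 0.01. Slc25a27 read 5.96, 6.03 and 6.47 against 6.87, 7.61 and 5.59, so that GFP negative replicate 3 lay on the other side of the GFP positive arrays from the rest of its group. Its difference was −0.54 (SE 0.48, limma adjusted p = 0.638), and −1.09 without that array (limma adjusted p = 0.0496). Slc25a14 and Slc25a30 differed by 0.01 and 0.21. Of the members without a settled substrate that were tested, Slc25a46, an outer membrane protein tied to mitochondrial shape, read 11.82, 12.10 and 11.94 against 11.72, 11.75 and 11.62. Its groups did not overlap, and the difference of 0.26 (SE 0.17) did not pass (limma adjusted p = 0.505). Slc25a53 differed by 0.04.

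Carriers of the same substrate were compared with each other through their log2 ratio within an array, in 14 pairs. An exact 2-sided permutation test with 3 arrays against 3 cannot give a p below 0.1, so none can pass 0.05, and the smallest value after Benjamini-Hochberg adjustment over the pairs was 0.35. The ratio did not overlap between groups in 4 pairs (28.6%), where 25.3% of all tested genes, taken singly, did not overlap. That of Slc25a12 over Slc25a13 was higher in all GFP positive arrays by 1.10 (exact permutation p = 0.1), that of Slc25a18 over Slc25a22 by 0.41, that of Slc25a23 over Slc25a25 by 0.39 and that of Slc25a4 over Slc25a5 by 0.29, each with the same p. For Slc25a12 over Slc25a13 and for Slc25a18 over Slc25a22 the lowest GFP positive ratio lay just above the highest GFP negative one. Slc25a13 read 3.64 and 3.50 on GFP positive replicates 1 and 3, so its ratio depends on signal near background. The ratio of Slc25a16 over Slc25a42 differed by −0.46 and overlapped (exact permutation p = 0.5).

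Where a carrier had several probe sets above the filter, they often differed. This was so for 15 members, 9 of which had probe sets of opposite sign. Neither Slc25a42 nor Slc25a34 is among the 15, as each rests on 1 probe set above the filter, and so does Slc25a13. Of the 8 probe sets of Slc25a5, the one used differed by 0.03 and 5 others by −0.11 to 0.23, and the remaining ones by 0.33 and 0.73. The last is the one probe set of Slc25a5 without a suffix of _s_at, _x_at or _a_at. It separated the groups without passing when every probe set was tested separately (limma adjusted p = 0.138). For Slc25a4 the 3 probe sets with such a suffix differed by 0.19 to 0.32, and the one without it by −0.02. Probe sets ending in _s_at or _x_at can bind transcripts of related genes, while _a_at marks those shared by transcripts of 1 gene. All 3 suffixes were flagged alike here. The probe sets used for Slc25a4 and Slc25a5 end in _a_at and _x_at, and the separate values of such near-identical carriers are uncertain. For Slc25a51 one probe set differed by 0.73 and separated the groups, while the one used differed by 0.12. Both probe sets of Slc25a46 separated the groups, at 0.26 and 0.38.

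**Figure D3:**
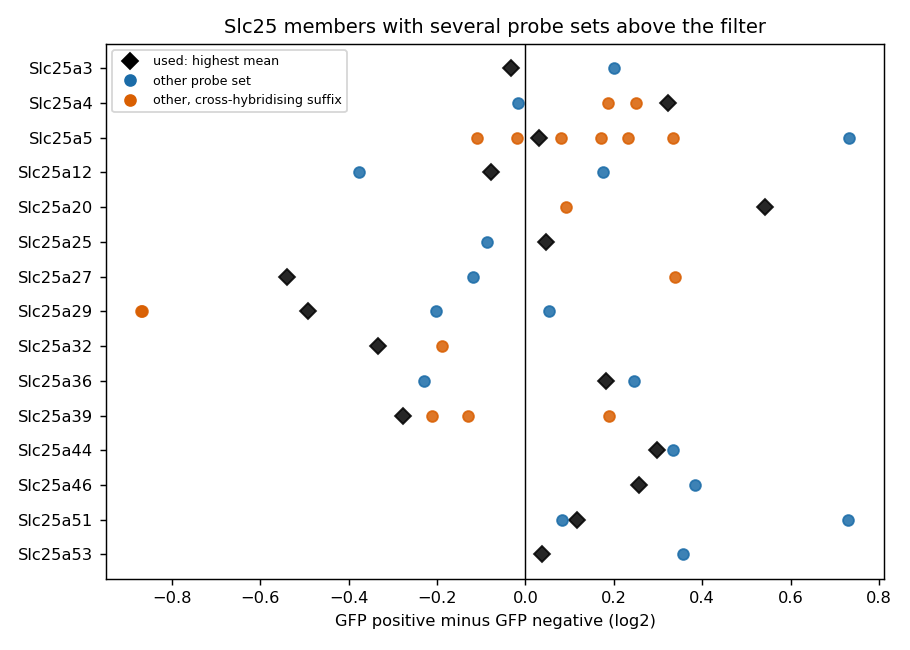
Differences between group means on the log2 scale (x axis, positive where GFP positive cells were higher) of every probe set above the filter for the 15 carriers that have several. Diamonds are the probe sets used; in 9 of the 15 rows the points lie on both sides of 0, as for Slc25a3 (−0.03 and 0.20).

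The counts of carriers past the threshold moved with single arrays. Without GFP positive replicate 1, 2 or 3, or without GFP negative replicate 2, 0 members passed in either direction, and at an unadjusted p under 0.05 limma counted 4, 2, 2 and 4 members higher and 1 lower each in these fits. At that unadjusted threshold 7.22%, 6.31%, 6.98% and 8.5% of all tested genes were higher and 6.67%, 5.85%, 5.02% and 7.01% lower. The adjusted shares of all tested genes called higher there were 0.019%, 0.38%, 0.0095% and 0.665%, and those called lower 0%, 0.627%, 0% and 0.342%. Without GFP negative replicate 1 only Slc25a42 was higher, where 1.5% and 1.86% of all tested genes were higher and lower. Without GFP negative replicate 3, 4 members were higher (Slc25a42, Slc25a34, Slc25a18 and Slc25a33) and 1 lower (Slc25a27). In that fit 7.61% and 4.21% of all tested genes were higher and lower. Slc25a34 was there at log2 4 or more in the GFP positive group alone, so its call depends on the filter.

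**Figure D4:**
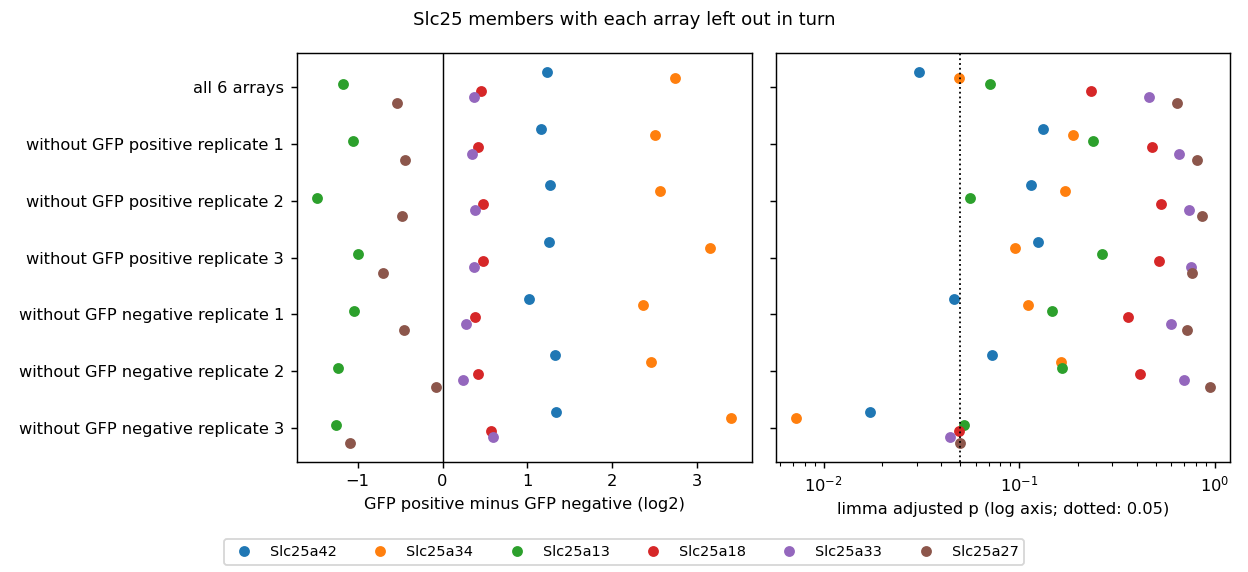
Differences (left, log2) and limma adjusted p (right, log axis) of 6 carriers with all 6 arrays and with each array left out in turn. Slc25a42 lies past the threshold of 0.05 (dotted) with all arrays and in 2 of the 6 reduced fits, Slc25a34 with all arrays and without GFP negative replicate 3, and Slc25a13 in none.

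Medians of the substrate classes moved as well when 1 array was left out. Carriers of acylcarnitine, cofactors and pyrimidine nucleotides had a median of 0.45 without GFP negative replicate 3, and otherwise 0.24 to 0.37. The amino acid carriers ranged from −0.21 without GFP negative replicate 1 to 0.15 without GFP negative replicate 3, the carriers of di- and tricarboxylates from −0.21 without GFP negative replicate 2 to 0.09 without GFP negative replicate 3, and the uncoupling protein-like carriers from −0.17 without GFP negative replicate 3 to 0.08 without GFP positive replicate 1. Carriers of adenine nucleotides and phosphate ranged from 0.02 without GFP negative replicate 1 to 0.13 without GFP negative replicate 3, and those of iron and glutathione from −0.33 without GFP negative replicate 1 to −0.14 without GFP negative replicate 2, with −0.16 without GFP negative replicate 3.

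The counts also moved with the processing. Slc25a42 and Slc25a34 were both higher with quantile normalization (2.71% of all tested genes higher and 2.16% lower) and with arrays set to a common median (3.07% and 1.98%). Both were also higher without probe sets ending in _s_at, _x_at or _a_at (2.3% and 2%) and with values under log2 4 set to 4 (2.28% and 1.87%). Slc25a42 alone was higher with a filter at log2 6 (2.29% and 1.87%), where Slc25a34 was not tested, and with all probe sets in the fit (2.1% and 1.65%). Slc25a34 alone was higher with trend and robust settings (2.34% and 2.04%). No carrier passed with no filter (1.06% and 0.555%), with the replicate number as a block (0.18% and 0.076%) or with the 3′ to 5′ covariate (0.0855% and 0%), where limma counted 8, 2 and 3 members higher and 1 lower each at an unadjusted p under 0.05. The shares of all tested genes at that unadjusted threshold were 7.39%, 7.02% and 7.54% higher and 6.26%, 5.93% and 5.35% lower. With arrays weighted by how well they fitted their group, 6 carriers were higher and 2 lower (9.98% and 5.73% of all tested genes). The 6 were Slc25a42, Slc25a34, Slc25a18, Slc25a20, Slc25a23 and Slc25a33, and the 2 were Slc25a40 and Slc25a27. In that fit GFP positive replicate 2 had a weight of 8.35, against 0.83 and 1.22 for replicates 1 and 3. GFP negative replicate 3 had a weight of 0.15, so the GFP positive side rested mostly on 1 array.

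Genes that work beside the carriers were read from lists, chosen with earlier results of these data known. Mpc1, a subunit of the mitochondrial pyruvate carrier, which belongs to another family, rose: it read 11.56, 11.56 and 11.54 in GFP positive and 10.88, 10.76 and 10.79 in GFP negative arrays. The difference was 0.74 (SE 0.16, 1.67-fold, limma adjusted p = 0.0463), and among fits with 1 array left out it passed without GFP negative replicate 3 only (otherwise up to 0.226), while the difference stayed between 0.72 and 0.77. In glutamate metabolism 1 of 7 tested genes rose and none fell, where 2.35% of all tested genes were higher and 2.11% lower. Of the 7, 4 were positive and 3 negative, with a median of 0.43, which was 0.26 without GFP negative replicate 3. The gene that rose was Oat, which makes glutamate from the ornithine that Slc25a15 imports, at 1.30 (SE 0.21, 2.46-fold, limma adjusted p = 0.0203). At an unadjusted p under 0.05 limma also counted Glud1, glutamate dehydrogenase (0.56, limma adjusted p = 0.216), and Glul, glutamine synthetase (0.69, 0.248). At that unadjusted threshold 9.92% of all tested genes were higher. Without GFP negative replicate 3 Glud1 passed (0.72, limma adjusted p = 0.0425), where 7.61% of all tested genes were higher. The negative members were the aspartate aminotransferases Got2 (−0.35, lower on every GFP positive array, limma adjusted p = 0.426) and Got1 (−0.27), and Aldh18a1 (−0.07). Oat passed without GFP negative replicate 1 or 3 and not without any of the other arrays (up to 0.110), with differences of 1.11 to 1.42.

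In the folate, nucleotide and methyl cycle list 2 of 9 tested genes fell and none rose, with a median of −0.38. Of all tested genes 2.11% were lower and 2.35% higher. The median of the list was −0.56 without GFP negative replicate 1 and −0.18 when replicate 3 of that group was left out. In the latter fit Tk2 was higher (1.25, limma adjusted p = 0.00855), as were 7.61% of all tested genes. Tk2 read 4.95, 5.16 and 4.88 in GFP positive and 3.77, 3.72 and 4.89 in GFP negative arrays. It met the filter through the group where it was high and GFP negative replicate 3. Without that array both remaining GFP negative values were under log2 4, so this call depends on the filter. Mthfd2, an enzyme of mitochondrial folate metabolism, read 9.32, 9.47 and 8.63 in GFP positive and 10.29, 10.33 and 10.42 in GFP negative arrays. It fell by 1.21 on the log2 scale (SE 0.25, limma adjusted p = 0.0425), and Mthfd1l, which completes that pathway to formate, fell by 1.14 (SE 0.21, limma adjusted p = 0.0306). Among fits with 1 array left out, Mthfd2 passed in that lacking GFP negative replicate 3 alone (in the others up to 0.131 by limma), and Mthfd1l without GFP negative replicate 1 or 3 (otherwise up to 0.140). Over the 6 fits the differences were −1.37 to −0.95 for Mthfd2 and −1.30 to −1.01 for Mthfd1l. With all arrays Shmt2, the serine hydroxymethyltransferase of mitochondria (−0.58, limma adjusted p = 0.186), reached an unadjusted p under 0.05. So did Tk2, the mitochondrial thymidine kinase (0.87, limma adjusted p = 0.216), and neither passed after adjustment in that fit. At that unadjusted threshold 8.28% of all tested genes were lower and 9.92% higher. The folate carrier Slc25a32 itself differed by −0.33 and did not pass.

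In the other lists no gene passed by limma with all 6 arrays. For comparison with their counts, 50.5% of all tested genes were positive. At an unadjusted p under 0.05 limma counted 9.92% of all tested genes higher and 8.28% lower. Of 10 genes of the carnitine shuttle and beta-oxidation 9 were positive, with a median of 0.26, and 1 was higher at an unadjusted p under 0.05 (Acadm, a medium-chain acyl-CoA dehydrogenase, 0.51, limma adjusted p = 0.144). Hadh and Acadl differed by 0.31 and 0.28. The median was 0.17 without GFP negative replicate 2 and 0.46 when replicate 3 of that group was left out. In the latter fit Cpt2, an acyltransferase of the carnitine shuttle, passed (1.09, limma adjusted p = 0.0445), where 7.61% of all tested genes were higher. Of 9 genes of citrate export and use 3 were positive, with a median of −0.09, and 1 was lower unadjusted (Elovl6, a fatty acid elongase, −0.78, limma adjusted p = 0.133). Acly, which splits exported citrate into acetyl-CoA, differed by −0.09. The median of this list ranged from −0.18 without GFP negative replicate 1 to 0.10 without GFP negative replicate 3. Of 6 enzymes of the malate-aspartate and glycerol phosphate shuttles 4 were positive, with a median of 0.12, and 1 was higher unadjusted (Gpd2, the mitochondrial glycerol phosphate dehydrogenase, 0.84, limma adjusted p = 0.105). Mdh2, malate dehydrogenase, differed by 0.08, and without GFP negative replicate 3 Gpd1, the cytosolic glycerol phosphate dehydrogenase, passed (0.87, limma adjusted p = 0.0300). That was again the fit with 7.61% of all tested genes higher. The machinery that imports carriers into the inner membrane had 2 of 13 genes positive, with a median of −0.26, and 1 lower unadjusted (Timm8a1, −0.44, limma adjusted p = 0.206). The import receptors Tomm20 and Tomm22 differed by −0.07 and −0.26. The median was −0.14 without GFP negative replicate 3. On GFP negative replicate 3 its median was 0.35 above each gene's mean over the 6 arrays, against −0.02 and 0.05 on the other GFP negative arrays.

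Genes of ATP synthase (10 tested, median 0.01), outer membrane channels and the calcium uniporter (6 tested, median 0.04) and iron-sulfur and haem synthesis (8 tested, median 0.14) had 0 members past the limma threshold and 0 at an unadjusted p under 0.05. Named by the rule from these lists were Atp5o (0.32) and Atp5h (0.07), the channels Vdac1 (0.02) and Vdac2 (0.06), and Fech (0.47) and Iscu (0.48). With 1 array left out the median ranged from −0.07 to 0.10 for ATP synthase, from 0.017 to 0.10 for the channels and uniporter, and from 0.04 to 0.28 for iron-sulfur and haem synthesis. Cs, citrate synthase, often used as a measure of mitochondrial content, differed by 0.09 (SE 0.17, limma adjusted p = 0.848). Among 9 tested regulators of mitochondrial biogenesis 5 were positive, with a median of 0.07, and 1 was higher and 1 lower unadjusted. They were Ppargc1a, a coactivator (0.51, limma adjusted p = 0.220), and Pprc1, a related coactivator (−0.65, 0.213). Tfam, the factor that packages mitochondrial DNA, differed by −0.36. The median of the regulators turned to −0.05 without GFP positive replicate 1 and to −0.03 without GFP negative replicate 2. Mtch2 (0.07) and Mtch1 (−0.19), outer membrane proteins of the carrier family, did not pass, and the uncoupling proteins Ucp1 and Ucp3 lay near background.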

How the data were processed

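Total RNA was labelled with biotin and hybridised to Affymetrix mouse arrays. The deposited values are log2 signals that the authors computed by GCRMA (per the submitters' processing notes, which name no version). GCRMA brings dim probe sets to a floor, so folds near background depend on it. Of 45101 probe sets, 34945 name exactly 1 gene in the platform annotation. Each of 18193 genes is represented by its brightest probe set (mean of 6 arrays), and the 10531 with log2 4 or more on at least 3 of 6 arrays were tested with limma 3.58.1 in R 4.3.3 (lmFit, eBayes), 2-sided, with Benjamini-Hochberg adjustment over all of them and a threshold of 0.05. The procedure was tested on simulated data. The rule for named members took all past the threshold, the brightest and the most different of each substrate class, 14 fixed for their role and the 2 nearest outside the threshold. Of related lists it took up to 2 past the threshold per direction or else the 2 with the highest mean signal, which sets names only. Other members and list genes were named after their values were seen. The members and lists were chosen with earlier results of these data known. The number of arrays limits the precision.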

Additional observations from a re-analysis of the deposited data

How the results depend on the processing

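The count of carriers higher in GFP positive cells was 2, and was 1 with a filter at log2 6, with all probe sets and with trend and robust settings, 0 with no filter, the replicate block and the 3′ covariate, and 6 with array weights, where 2 were lower instead of 0. Leaving out 1 array gave 0 to 4 higher and 0 to 1 lower. The cause of these changes was not tested. Same-numbered arrays' deviations from their group means correlated at −0.25, 0.05 and −0.50, and 1 of 6 arrays correlated best with its own number. The labels do not say whether arrays of the same number belong together. With so few arrays these correlations cannot decide it. With the replicate number as a block, 19 genes were higher and 8 lower over all tested genes, against 248 and 222.

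Differences of 20 members changed sign under at least 1 alternative, none of them past the threshold in any. Slc25a14 was −0.0015 with quantile normalization. With a common median Slc25a3 was 0.035 and Slc25a37 0.038. Slc25a3 was 0.20 with all probe sets, as without those ending in _s_at, _x_at or _a_at, where Slc25a4 was −0.016. With array weights Slc25a11 was 0.14, Slc25a12 0.069, Slc25a14 −0.11, Slc25a22 −0.0067, Slc25a3 0.10 and Slc25a36 −0.0063. With the 3′ covariate Slc25a32 was 0.044, Slc25a37 0.097 and Slc25a5 −0.047. Leaving out 1 array gave −0.15 to 0.33 for Slc25a1, −0.69 to 0.094 for Slc25a10, −0.34 to 0.027 for Slc25a11, −0.26 to 0.11 for Slc25a12, −0.17 to 0.15 for Slc25a14, −0.15 to 0.15 for Slc25a22, −0.14 to 0.15 for Slc25a3, −0.069 to 0.35 for Slc25a36, −0.14 to 0.11 for Slc25a37 and −0.031 to 0.093 for Slc25a5. Larger ranges with a change of sign were −0.29 to 0.90 for Slc25a30, −0.48 to 0.50 for Slc25a38, −0.88 to 0.047 for Slc25a29, −0.13 to 0.52 for Slc25a17 and −0.50 to 0.14 for Slc25a24; Slc25a53 gave −0.13 to 0.14 and Slc25a25 −0.014 to 0.098. Slc25a44 changed sign with the 3′ covariate (−0.026). The 3′ covariate and the raised dim values were chosen after seeing the data. Signal near background limits Slc25a34 and Slc25a13.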
